A study of Mus musculus with 8 samples.

Results

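The genes that make, conjugate, sense and move bile acids were followed in livers of mice with and without deletion of Smoothened (Smo) in hepatocytes. They were Cyp7a1, Cyp8b1, Cyp27a1, Cyp7b1, Baat, Nr1h4, Nr0b2, Abcb11, Slc10a1 and Slco1b2, chosen by name as members of this pathway, and all 10 were found among the 25239 gene symbols counted in each liver. Bulk RNA-Seq was performed on whole liver from 4 control and 4 Smo-KO mice, all adult male Smo fl/fl animals on a C57Bl6/J background. All were fed for 6 weeks with the CDA-HFD, which lacks choline, has a defined amino acid content, takes 60% of its kcal from fat and produces steatohepatitis, and all received AAV8, an adeno-associated virus, whose cargo was driven by the hepatocyte promoter TBG, 1 week before sacrifice. The vector carried luciferase in control mice and Cre recombinase, which deletes the floxed part of Smo, in Smo-KO mice. Every liver was therefore diseased, floxed for Smo and infected with virus, although the genotype of the controls is labelled as wild type, and no liver of a mouse on a normal diet was among the 8. Only hepatocytes are targeted, so Smo of other liver cells is left in place. Because RNA came from whole liver, fewer cells of a type and less RNA per cell cannot be told apart.

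Bile acids are made from cholesterol in hepatocytes. In the classical pathway CYP7A1 adds the first hydroxyl group and CYP8B1 directs the product towards cholic acid, and in the alternative pathway CYP27A1 and CYP7B1 act on the side chain and on oxysterols. The products are joined to taurine or glycine by BAAT, exported into bile by the bile salt export pump (Abcb11), reabsorbed in the ileum, and taken back from portal blood by NTCP (Slc10a1) and by the organic anion transporter OATP1B2 (Slco1b2). Bile acids inside the hepatocyte activate the nuclear receptor FXR (Nr1h4), which induces Abcb11 and the repressor SHP (Nr0b2), and SHP in turn lowers transcription of Cyp7a1 and Cyp8b1.

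The promoters that carry the inverted repeat or TCAAGG, letters of the kind that receptors of this loop bind, are shown. Promoter sequences in the RefSeq tables (GRCm38.p6) covered 7 of the 10 genes, and the 100 bases before the start are printed for 3 of them, with matches in capitals. For Abcb11 (chr2:69342617-69342716, minus strand) and Slco1b2 (chr6:141629418-141629517, plus strand) the capitals mark GGNCANTGNCC, an inverted repeat with 1 base between its arms of the type that FXR binds together with RXR. For Nr0b2 (chr4:133553276-133553375, plus strand) they mark TCAAGG, the start of the half-site of LRH-1 (Nr5a2).
Abcb11: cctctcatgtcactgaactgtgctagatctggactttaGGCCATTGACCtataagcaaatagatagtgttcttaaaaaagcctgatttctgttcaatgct
Slco1b2: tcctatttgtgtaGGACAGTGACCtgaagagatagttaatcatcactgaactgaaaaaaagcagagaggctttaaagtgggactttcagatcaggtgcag
Nr0b2: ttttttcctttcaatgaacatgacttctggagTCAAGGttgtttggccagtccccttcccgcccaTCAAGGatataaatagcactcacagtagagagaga
The inverted repeat lay at positions -62 to -52 of Abcb11 and -87 to -77 of Slco1b2, counted back from the transcription start. It reads the same on both strands, and 0.575% of 32851 mouse promoters held it within 250 bases before the start. TCAAGG stood at -68 to -63 and at -35 to -30 of Nr0b2, and 12.5% of promoters held it on either strand in the same window. The half-site AGGTCA, in 14% of promoters on either strand, overlapped the inverted repeat in Abcb11 and Slco1b2, and was also found at -214 to -209 of Nr1h4 and at -87 to -82 of 1 of the 2 starts listed for Slc10a1. Those starts of Nr1h4 and Slc10a1 lie inside the gene as GENCODE M21 annotates it, and the window before the outer start of Slc10a1 held no AGGTCA. The letters were chosen after these promoters had been read, and a match is a description and not a binding site.

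The livers had from 8203299 to 9999732 reads on genes (exact permutation test of the group means, two-sided p = 0.257). Levels are given as CPM (reads of a gene per 1000000 reads on genes) after TMM scaling, which adjusts each library for its composition, and 3 reads corresponded to between 0.297 and 0.366 CPM. The 10 genes were well covered, with 316 to 9187 reads per gene and liver, and all passed the filter on low counts. The targeted gene checked the labels: Smo averaged 8.40 ± 0.270 CPM in control and 4.56 ± 0.765 CPM in Smo-KO livers (SD, n = 4 each), 54.3% of control. Its groups did not overlap, as was so for 7.37% of all genes tested.

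By the quasi-likelihood test of edgeR, 0 of the 10 genes had an adjusted p under 0.05, as had 0 of all 12977 genes tested (0%). The lowest adjusted p among the 10 was 0.287, for Abcb11, and the highest was 0.999, for Slc10a1. DESeq2 called 163 genes (1.26%), and 0 of the 10 were among them, with a lowest adjusted p of 0.253. Smo, the deleted gene, was called by DESeq2 (adjusted p = 0.00613) but not by edgeR (adjusted p = 0.0957). Without adjustment, 3 of the 10 had p under 0.05 in edgeR, against 13.8% of all genes, and 3 in DESeq2, against 12.5%. Abcb11 and Cyp7b1 were among them in both, whereas Nr0b2 was under 0.05 only in edgeR (DESeq2, unadjusted p = 0.102) and Slco1b2 only in DESeq2 (unadjusted p = 0.0494). By edgeR, Abcb11 and Nr0b2 were lower in Smo-KO livers, where 7.15% of all genes had an unadjusted p under 0.05 in that direction, and Cyp7b1 was higher, where 6.7% had. For 0 of the 10 genes were the 2 groups of CPM values separate, against 7.37% of all genes. Fitted log2 fold changes (Smo-KO over control) were positive for 4 genes and negative for 6, with a median of -0.057 beside -0.00085 over all genes, and Slc10a1, whose value is closest to 0, turns positive with the size factors of RLE or DESeq2.

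**Figure D1:**
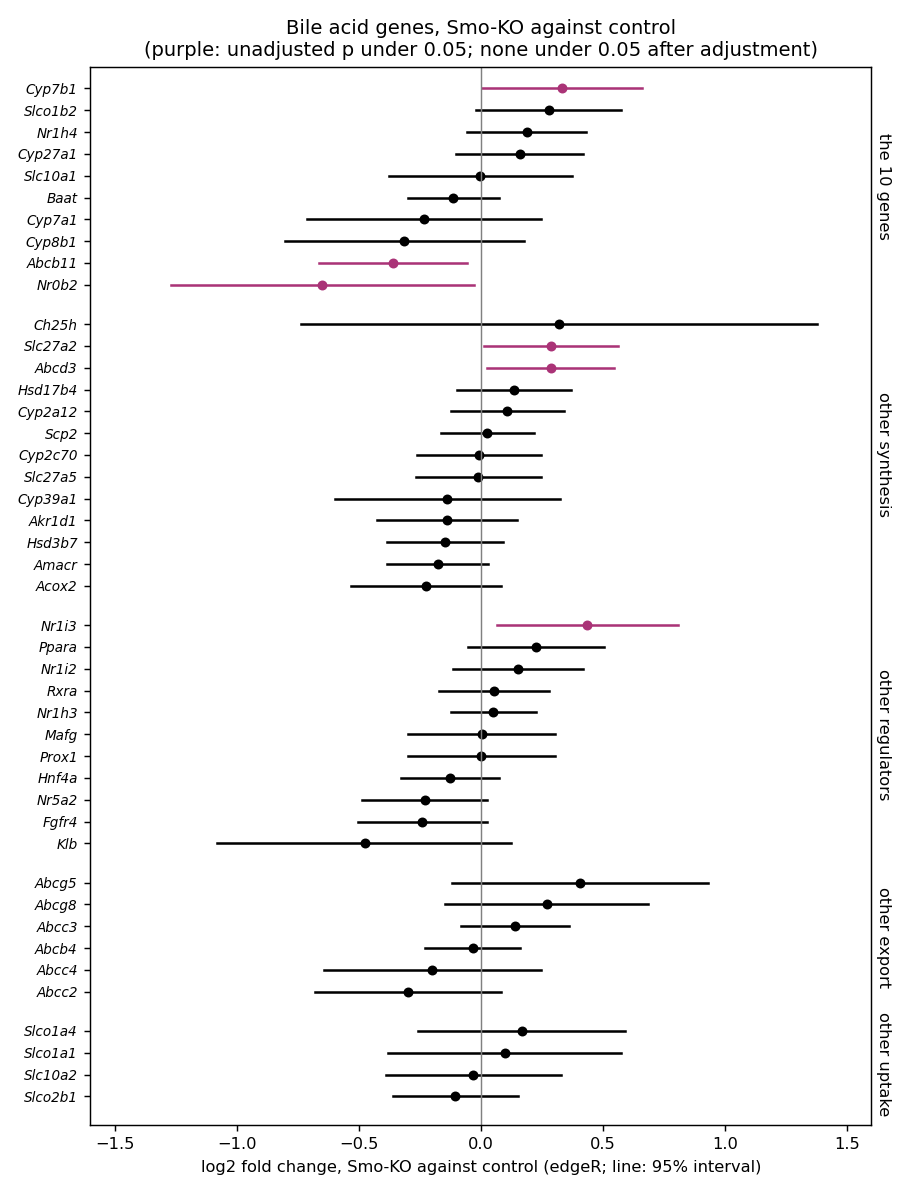
Log2 fold changes (x axis, Smo-KO over control) of the 10 bile acid genes and of the 34 other genes of the pathway that were tested, with 95% confidence intervals of the edgeR fit as lines and purple for an unadjusted p under 0.05. Among the 10 genes the values run from -0.65 for Nr0b2 to 0.33 for Cyp7b1, and none has an adjusted p under 0.05.

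Cyp7a1 (chr4:6265612-6275633, minus strand), the rate-limiting enzyme of the classical pathway, was measured at 115, 67.8, 183 and 122 CPM in control livers 1 to 4. In Smo-KO livers 1 to 4 it was at 106, 93.1, 92.0 and 123 CPM. All Smo-KO values lay inside the control range, and control liver 3 was the highest of the 8. The means were 122 ± 47.2 and 104 ± 14.7 CPM (n = 4 each), a log2 fold change of -0.23 with an SE of 0.221 (edgeR, adjusted p = 0.682). Without control liver 3 the value was 0.036, and without control liver 2 it was -0.43 (edgeR, unadjusted p = 0.0209, adjusted p = 0.332).

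Cyp8b1 (chr9:121914356-121916305, minus strand), the sterol 12-alpha-hydroxylase whose product sets the share of cholic acid, has a single exon. Its control levels were 335, 164, 186 and 164 CPM, and its Smo-KO levels were 179, 166, 120 and 217 CPM. Control liver 1 stood far above the other livers, and the remaining 7 overlapped. The log2 fold change was -0.31 with an SE of 0.225 (edgeR, adjusted p = 0.565), and it was -0.0051 without control liver 1.

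The enzymes of the alternative pathway had higher means in Smo-KO livers, within overlapping ranges. Cyp7b1 (chr3:18071950-18243338, minus strand), the oxysterol 7-alpha-hydroxylase, was at 153, 120, 113 and 88.1 CPM in control livers. It was at 122, 170, 160 and 146 CPM in Smo-KO livers. All 4 Smo-KO values were above the control median and 2 were above the highest control, with means of 119 ± 26.7 and 150 ± 20.9 CPM, or 126% of control. The log2 fold change was 0.33 with a 95% confidence interval of 0.0061 to 0.66 (edgeR, unadjusted p = 0.0464, adjusted p = 0.349). With each liver left out in turn the value lay between 0.22 and 0.48, and the unadjusted p was under 0.05 in 2 of these 8 fits (range 0.00419 to 0.145). Cyp27a1 (chr1:74713574-74737892, plus strand), the mitochondrial sterol 27-hydroxylase, was at 359, 310, 255 and 333 CPM in control and 356, 375, 289 and 385 CPM in Smo-KO livers. Its groups overlapped over most of their range, with a log2 fold change of 0.16 and an interval of -0.10 to 0.42 (edgeR, adjusted p = 0.582). It was 0.076 without control liver 3 and 0.24 without Smo-KO liver 3.

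Baat (chr4:49489422-49506557, minus strand), which conjugates bile acids to amino acids, had the smallest spread of the 10 genes in control livers, with a coefficient of variation of 3.69%. In Smo-KO livers it was 8.46%, next to 8.39% for Nr1h4. Its values were 290, 279, 276 and 265 CPM in control and 231, 275, 246 and 275 CPM in Smo-KO livers. Smo-KO livers 1 and 3 were below all controls and the other two were within the control range. The log2 fold change was -0.11 with an interval of -0.30 to 0.075 (edgeR, adjusted p = 0.593), and it was -0.059 without Smo-KO liver 1.

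**Figure D2:**
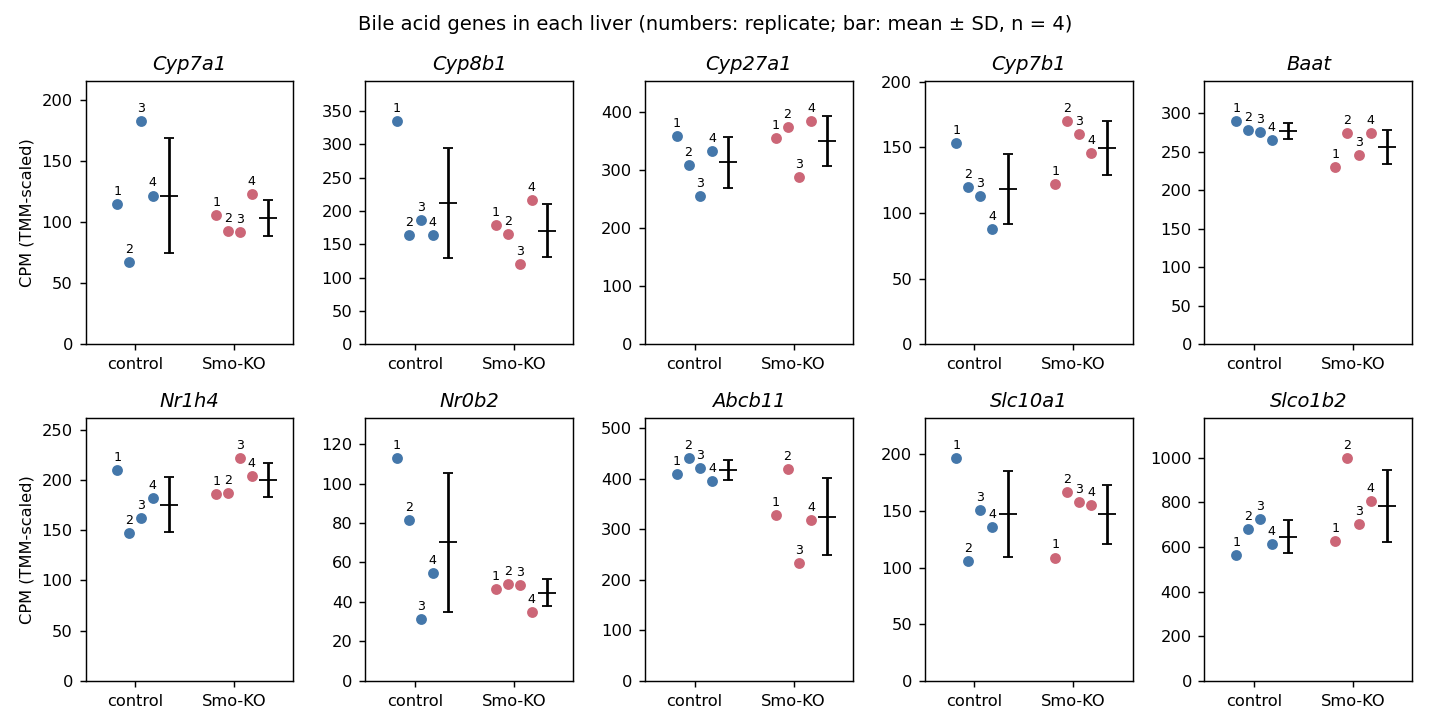
TMM-scaled CPM (y axis, 1 panel per gene, each from 0) of the 10 bile acid genes in 4 control and 4 Smo-KO livers, with points for livers, bars at the mean and error bars for the SD. The groups overlap in every panel, and for Abcb11 Smo-KO livers 1, 3 and 4 lie below all 4 controls.

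Of the sensors, Nr1h4 (chr10:89454234-89533585, minus strand), which encodes the bile acid receptor FXR, was at 210, 147, 162 and 182 CPM in control livers. It was at 186, 187, 222 and 204 CPM in Smo-KO livers, all above the control median. Control liver 1 lay among the Smo-KO values, and the log2 fold change was 0.19 with an interval of -0.057 to 0.43 (edgeR, adjusted p = 0.485). It was 0.29 without control liver 1 (unadjusted p = 0.0166, adjusted p = 0.243) and 0.12 without control liver 2. Nr0b2 (chr4:133553376-133556536, plus strand), which encodes SHP, showed the largest fold difference of the 10 genes and the widest spread among control livers. It was at 113, 81.4, 31.4 and 54.8 CPM in control livers, a range that enclosed the Smo-KO values of 46.4, 48.9, 48.7 and 34.8 CPM. The control group had a coefficient of variation of 50.2%, against 15.0% in Smo-KO livers. The means of 70.2 ± 35.2 and 44.7 ± 6.70 CPM gave a log2 fold change of -0.65 with an interval of -1.27 to -0.026 (edgeR, unadjusted p = 0.0423, adjusted p = 0.340), and in an exact permutation test of the CPM values p was 0.229, two-sided. Its unadjusted p was 0.102 in DESeq2, 0.113 in limma-voom and 0.0505 with a replicate block, none of which is under 0.05. Control liver 1 carried much of this difference, since without it the log2 fold change was -0.32 (unadjusted p = 0.215), while without control liver 3 it was -0.89 (adjusted p = 0.249). The unadjusted p was under 0.05 in 2 of the 8 fits that left out a liver.

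Abcb11 (chr2:69238282-69342616, minus strand), which encodes the bile salt export pump, the main route of conjugated bile acids into bile, had the lowest p of the 10 genes. Control livers held 410, 441, 421 and 396 CPM. Smo-KO livers held 328, 419, 234 and 319 CPM. The controls lay close together, with a coefficient of variation of 4.55% against 23.3% in Smo-KO livers, and 3 of 4 Smo-KO livers lay below the lowest control, whereas Smo-KO liver 2 was within the control range. The means were 417 ± 19.0 and 325 ± 75.8 CPM, 77.9% of control (exact permutation test, two-sided p = 0.0857, where 0.0286 is the smallest p that 4 against 4 allow). The log2 fold change was -0.36 with an SE of 0.140 and an interval of -0.66 to -0.056 (edgeR, unadjusted p = 0.0239, adjusted p = 0.287). Leaving out Smo-KO liver 3, which had the fewest reads of the 8 livers, gave -0.23, and leaving out Smo-KO liver 2 gave -0.51, and the unadjusted p was under 0.05 in 6 of the 8 fits that left out a liver. Exons of Abcb11 overlap those of Gm13613 and Gm13614 on the other strand in GENCODE M21, and the counting is not stated to use strand. Neither Gm13613 nor Gm13614 is among the gene symbols counted in these livers.

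Slc10a1 (chr12:80953183-80968705, minus strand), the sodium-dependent carrier NTCP, was at 197, 106, 151 and 136 CPM in control and at 109, 167, 158 and 155 CPM in Smo-KO livers. The means were 148 ± 38.2 and 147 ± 26.0 CPM, with an interval of -0.38 to 0.38 for the log2 fold change. Slco1b2 (chr6:141629518-141686646, plus strand), the sodium-independent carrier OATP1B2, was at 563, 681, 728 and 615 CPM in control and at 626, 1000, 704 and 806 CPM in Smo-KO livers. Smo-KO livers 2 and 4 were above all controls, and the others were inside the control range. Its log2 fold change was 0.28 with an interval of -0.019 to 0.58 (edgeR, unadjusted p = 0.0642, adjusted p = 0.391). The value was 0.14 without Smo-KO liver 2 and 0.38 without Smo-KO liver 1 (edgeR, unadjusted p = 0.014, adjusted p = 0.174). The unadjusted p was under 0.05 in 3 of the 8 fits that left out a liver, and was 0.0422 with a replicate block (edgeR, adjusted p = 0.287).

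To compare genes with each other, CPM were divided by the length of exons in kb (GENCODE M21, GRCm38). Levels in control livers ran from 196 ± 22.0 CPM per kb for Slco1b2, over 166 ± 23.3 for Cyp27a1, 143 ± 5.28 for Baat and 109 ± 42.2 for Cyp8b1, down to 54.8 ± 12.3 for Cyp7b1 and 29.2 ± 11.3 for Cyp7a1 (CPM per kb, SD, n = 4). Between them were Abcb11 at 81.1 ± 3.69, Nr1h4 at 76.2 ± 11.8, Slc10a1 at 67.1 ± 17.4 and Nr0b2 at 62.0 ± 31.1 CPM per kb. In this order all 9 pairs of neighbours overlapped in range. The rate-limiting enzyme Cyp7a1 had the lowest level per kb of the 10 genes in both groups, with 24.9 ± 3.52 CPM per kb in Smo-KO livers. In Smo-KO livers Nr1h4, at 86.8 ± 7.28 CPM per kb, stood above Abcb11, at 63.2 ± 14.7, by mean, whereas Abcb11 was the higher by mean in controls. The ranges of these genes overlapped in both groups, and the change of order was not tested.

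**Figure D3:**
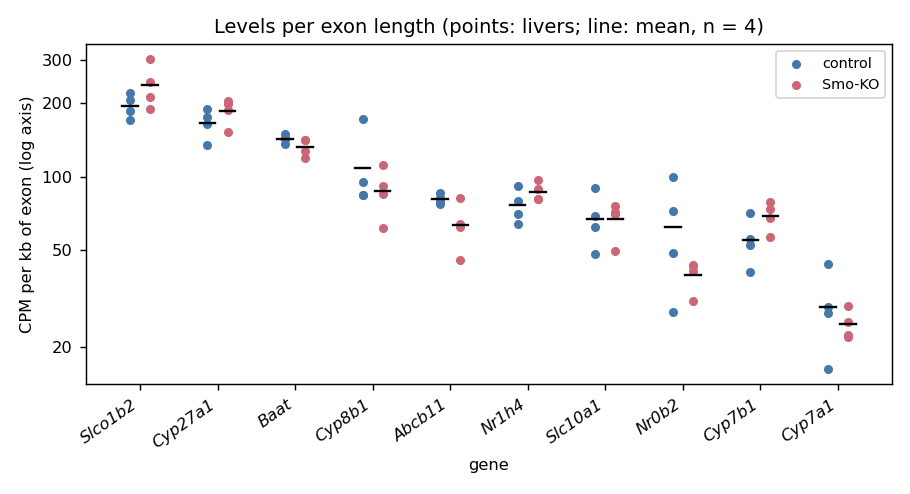
Levels of the 10 bile acid genes in CPM per kb of exon (y axis, log scale), with points for the 8 livers and marks for group means, ordered by the control mean. Neighbouring genes overlap in range, and Cyp7a1 is lowest by mean in both groups.

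Single livers set several of these values. Deviations were taken from the control mean of log2 CPM, which differs from the mean of CPM given above. Of the 10 genes, 4 were highest in control liver 1, and 8 stood above this mean there, with a median log2 deviation of 0.24. Cyp7a1 was above it by only 0.0020, and in CPM it was below its control mean. Smo-KO liver 1 had a median deviation of -0.14 and Smo-KO liver 4 of 0.11, so that livers of the same group lay on both sides of the control mean.

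**Figure D4:**
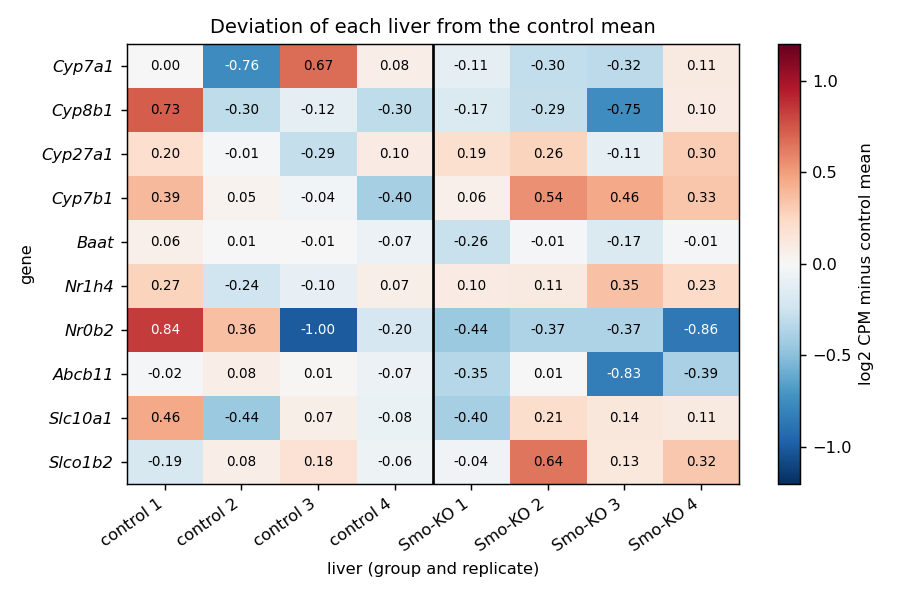
Deviation of each bile acid gene from its control mean of log2 CPM (colour scale) in each of the 8 livers (columns). Control liver 1 is above this mean for 8 of the 10 genes (for Cyp7a1 by only 0.0020), and Nr0b2 is below it in all 4 Smo-KO livers.

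SHP is a known repressor of Cyp7a1, Cyp8b1 and Slc10a1, and a target of FXR as Abcb11 is, so the level of Nr0b2 was related to these 4 genes over the 8 livers. With Cyp7a1, Pearson's r was -0.533 (permutation p = 0.171, adjusted p = 0.561 over the 4 relations) and Spearman's rho was -0.524 (permutation p = 0.197, adjusted p = 0.752). Control liver 3 had the lowest Nr0b2 and the highest Cyp7a1. Without control livers 1 and 2, which were farthest from the median of Nr0b2, r was -0.749 (exact permutation p = 0.0694, adjusted p = 0.278). After subtraction of each group mean r was -0.713 (permutation p = 0.191) and rho was -0.833 (permutation p = 0.0312, adjusted p = 0.125). Control liver 3 was kept in each of these settings, and the relation without it was not tested. With Cyp8b1, Abcb11 and Slc10a1, r was 0.432, 0.309 and 0.108 (adjusted p between 0.561 and 0.812) and rho was -0.167, 0.286 and 0.143 (adjusted p = 0.752 each, by permutation). Without control livers 1 and 2 these 3 values of r turned negative, to -0.609, -0.158 and -0.202 (adjusted p between 0.408 and 0.768, by permutation). No relation passed the correction.

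**Figure D5:**
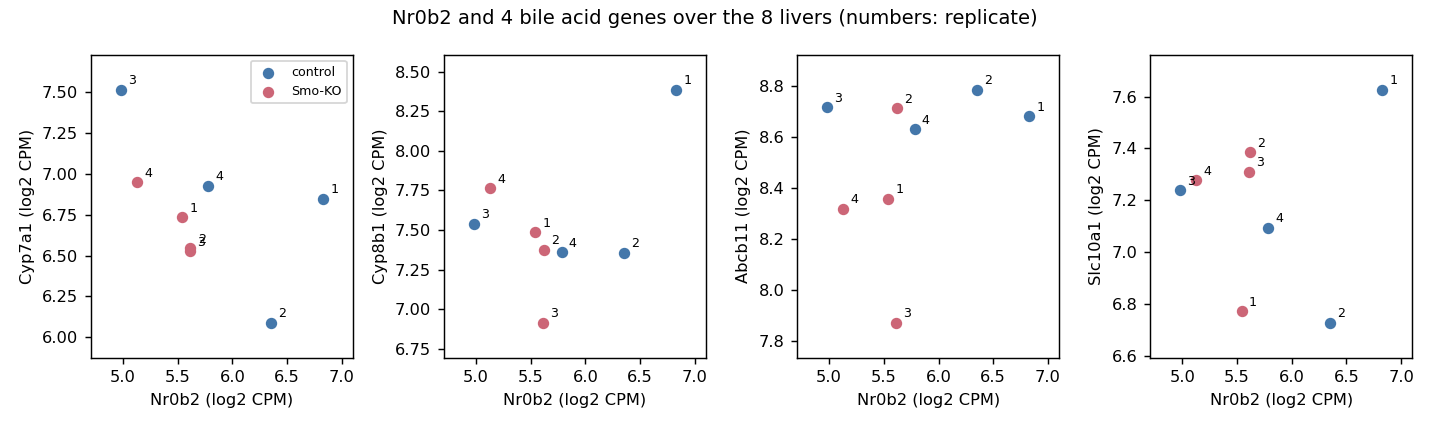
Log2 CPM of Cyp7a1, Cyp8b1, Abcb11 and Slc10a1 (y axes) against log2 CPM of Nr0b2 (x axis) in 8 livers, coloured by group. Control liver 3, at the lowest Nr0b2, has the highest Cyp7a1, and r is -0.533 over the 8 livers for Cyp7a1.

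Other genes of the pathway were taken from 4 lists by role, of synthesis, regulation, export and uptake, with 40 genes in all. Of these, 34 passed the filter on low counts, and 0 had an adjusted p under 0.05 by edgeR or by DESeq2. Unadjusted p was under 0.05 for 3 of the 34 in edgeR (8.82%, against 13.8% of all genes), all 3 higher in Smo-KO livers, and for 3 in DESeq2. Their log2 fold changes had a median of 0.0026, with 18 positive and 16 negative.

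Among 14 other synthesis genes, 13 were tested and 2 had p under 0.05. Slc27a2, an acyl-CoA synthetase of very long-chain fatty acids and bile acid precursors, was at 808, 768, 698 and 720 CPM in control and at 702, 1030, 1080 and 844 CPM in Smo-KO livers. Its log2 fold change was 0.29 (edgeR, unadjusted p = 0.0407, adjusted p = 0.336), and its unadjusted p was 0.0667 with a replicate block and 0.0537 in limma-voom. Slc27a2 overlaps Gm26697 on the other strand in GENCODE M21. Abcd3, the peroxisomal membrane transporter of branched-chain substrates, averaged 287 ± 15.7 and 351 ± 61.4 CPM (n = 4 each), with a log2 fold change of 0.29 (edgeR, unadjusted p = 0.0335, adjusted p = 0.318). For both genes 3 Smo-KO livers were above the highest control and Smo-KO liver 1 was not. Amacr, the racemase that prepares the side chain for oxidation, averaged 180 ± 8.79 and 159 ± 18.7 CPM (edgeR, adjusted p = 0.434). Scp2, which carries sterols and acts in side-chain shortening, was the most counted synthesis gene, at 2520 ± 116 and 2570 ± 180 CPM. Cyp46a1, the cholesterol 24-hydroxylase of neurons, had 4 to 18 reads per liver and was not tested.

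Of 14 other regulators, 11 were tested. Nr1i3, which encodes the xenobiotic receptor CAR, was the only one of the 34 other genes with separate groups, against 7.37% of all genes. Its values were 172, 135, 84.8 and 158 CPM in control and 176, 173, 185 and 209 CPM in Smo-KO livers, so that the highest control lay just under the lowest Smo-KO liver. The log2 fold change was 0.44 with an SE of 0.171 (edgeR, adjusted p = 0.288), and it was 0.27 without control liver 3. Nr1i3 overlaps Tomm40l on the other strand in GENCODE M21. Fgfr4, the hepatocyte receptor of the ileal hormone FGF15, averaged 75.8 ± 7.20 and 64.1 ± 10.9 CPM, and Nr5a2, which encodes LRH-1, averaged 30.8 ± 3.76 and 26.2 ± 3.12 CPM (edgeR, adjusted p = 0.404 and 0.406). Hnf4a, a master regulator of hepatocyte genes, was the most counted at 541 ± 22.1 and 496 ± 52.1 CPM. Fgf15 itself, a hormone of the ileum, had 0 reads in all 8 livers, which allows up to 0.366 CPM from counting error alone. Vdr, the vitamin D receptor, had 34 reads in total and Gpbar1, the membrane receptor TGR5, had 9.

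Of 8 other export genes, 6 were tested. The canalicular pump Abcc2 averaged 222 ± 39.5 and 180 ± 48.7 CPM, and Abcb4, which moves phospholipid into bile and was the most counted, averaged 504 ± 32.3 and 492 ± 39.1 CPM (edgeR, adjusted p = 0.478 and 0.905). The partners of the sterol exporter, Abcg5 and Abcg8, averaged 49.4 ± 16.8 and 60.2 ± 17.8 CPM in control and 65.3 ± 22.3 and 72.4 ± 14.7 CPM in Smo-KO livers (edgeR, adjusted p = 0.485 and 0.562). Their exons overlap on opposite strands. Slc51a and Slc51b, the subunits of the basolateral exporter that cholestatic livers induce, had 2 and 31 reads in total and were not tested.

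The 4 other uptake genes had adjusted p of 0.736 or more. Slco2b1 was the most counted, at 127 ± 15.5 and 118 ± 16.8 CPM, and Slco1a4 and Slco1a1 had log2 fold changes of 0.17 and 0.098. Slc10a2, the sodium-dependent carrier known from ileum and bile duct epithelium, was counted with 343 to 581 reads per liver. Its level was 11.5 ± 2.24 CPM per kb in control livers.

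Markers of liver cell types were summed beside these results. The summed level of 10 hepatocyte markers was 32720 ± 2110 CPM in control and 31760 ± 723.7 CPM in Smo-KO livers (exact permutation test, two-sided p = 0.486). Its most counted gene was Alb, and Tat, an amino acid enzyme, had the smallest p of the list (log2 fold change -0.62, edgeR, adjusted p = 0.397). Tat was lowest in Smo-KO liver 3, at 243 CPM. Of the 10 bile acid genes, 2 were lowest there, Abcb11 and Cyp8b1, and a link with Tat was not tested. Ass1, a urea cycle enzyme that hepatocytes express strongly, had 1 read in all 8 livers together. Its near-identical pseudogene Gm5424 had 0 reads, and how reads that match both were counted is not given in the sources used here, so the count of Ass1 is uncertain and is not read as absence. Sums of 8 cholangiocyte markers were 168.8 ± 41.38 and 197 ± 47.09 CPM (p = 0.429, exact permutation test), led by Spp1. The smallest p of the list was that of Epcam, at 5.03 ± 1.52 and 6.72 ± 1.82 CPM (edgeR, adjusted p = 0.471). Sums of 8 Kupffer cell and macrophage markers were 1435 ± 252.7 and 1416 ± 272.7 CPM (p = 0.857, exact permutation test), led by Cd5l, while Trem2, a marker of lipid-associated macrophages, averaged 33.6 ± 2.94 and 56.5 ± 9.70 CPM without overlap (edgeR, adjusted p = 0.0957; DESeq2, adjusted p = 0.000156). Stellate cell and fibroblast markers summed to 1115 ± 60.86 and 1008 ± 157.8 CPM (p = 0.314, exact permutation test), led by Col3a1, with Col1a1 lowest in p (log2 fold change -0.36). Sinusoidal endothelial markers summed to 277.3 ± 20.68 and 265.3 ± 73.39 CPM (p = 0.771, exact permutation test), led by Stab1, with Pecam1 lowest in p (log2 fold change -0.50). Lymphocyte markers summed to 42.38 ± 4.918 and 25.88 ± 6.136 CPM, led by Nkg7, and these sums did not overlap (p = 0.0286, exact permutation test). Cd8a, a marker of cytotoxic T cells, had the smallest p of that list (log2 fold change -0.77, edgeR, adjusted p = 0.116; DESeq2, adjusted p = 0.0143). Of the 7 lymphocyte markers tested, edgeR called 0 (0% of all genes) and DESeq2 called 3 (1.26% of all genes), each lower in Smo-KO livers. The others were Nkg7, with an adjusted p of 0.140 in edgeR and 0.0121 in DESeq2, and Cd3e, a subunit of the T cell receptor complex, with an adjusted p of 0.175 and 0.0399. No marker was at 0 in all 8 livers. The part of these cell types in the levels of the bile acid genes was not tested.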

How the data were processed

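Liver RNA was sequenced from 4 control and 4 Smo-KO mice. Per the labels, reads were handled with fastp, STAR 2.7.5 and featureCounts 2.0.1 on GRCm38. The authors deposited unnormalized counts per gene symbol, and the last lines of each list look like output of htseq-count. The annotation and strand setting are not given in the sources used here. Reads on no feature (8.33% ± 0.743 in control, 9.23% ± 0.330 in Smo-KO, SD, n = 4 each) were left out. Counts were fitted with edgeR 4.0.16 under R 4.3.3 (filterByExpr, TMM, quasi-likelihood F test, genotype as the only term, Benjamini-Hochberg over 12977 genes) and, as alternatives, DESeq2 1.42.0 and limma-voom 3.58.1, other size factors and filters, a replicate block and each liver left out. Log2 CPM used a prior count of 2. Single values were compared by exact permutation over 70 assignments. No 2 livers of 1 group were copies (chi-square per degree of freedom 8.17 to 18.5), and p-values measure the spread between these samples. Floors of 3 reads cover counting error only. Figures were drawn with matplotlib 3.10.9. The procedure was tested on simulated data.

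The 10 genes and the lists were chosen with earlier results of these data known. Named were Smo, the 10 genes, and from each other pathway list all genes with p under 0.05, the 3 smallest p, the most counted gene and genes that failed the filter. From each marker list the most counted gene and the smallest p were named. Slc10a2, Cd3e, Ass1, Gm5424, Hsd3b7, Cyp39a1 and Slc27a5 were named after their values were seen.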

Additional observations from a re-analysis of the deposited data

Results flagged for a closer look

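In 7 of 106 groups of 4 livers examined, 1 liver lay far from the others by Dixon's criterion, and chance gives about 5.3 of 106. Among the 10 bile acid genes this held for Cyp8b1, with 334.6 CPM in control liver 1 and between 163.7 and 185.9 CPM in the other controls. In Smo-KO livers, the synthesis gene Hsd3b7 was at 443.8 CPM in liver 3 (the others between 605.2 and 629.8), and Cyp39a1, an oxysterol hydroxylase, was at 26.29 CPM in liver 1 (the others between 13.75 and 15.16). Smo-KO liver 2 stood above the others of its group in Slc27a5, the bile acid CoA ligase, at 344.1 CPM (252.2 to 265 in the others), in Abcb4 at 551 CPM (470.8 to 475.6) and in Slc10a2 at 63.15 CPM (38.8 to 42.68). Smo-KO liver 3 had 8203299 reads on genes, where the other Smo-KO livers had between 9367795 and 9543675.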

How the results depend on the processing

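Under 14 alternative fits, 0 of the 10 genes and 0 of the other bile acid genes had an adjusted p under 0.05, while the count over all genes was 163 with DESeq2, 61 without the filter on low counts, and 0 to 78 with a liver left out (5 without control liver 1, 78 without Smo-KO liver 1, 4 without Smo-KO liver 3). Of the 10 genes, 1 to 3 had an unadjusted p under 0.05 with a liver left out (1 without control liver 2, which was Cyp7a1, and 1 without Smo-KO liver 2, 3 or 4), and of the other bile acid genes 1 to 8 (6 without control liver 1, 1 without control liver 4, 8 without Smo-KO liver 1, 1 without Smo-KO liver 4). Over all genes this count was 1797 with all 8 livers, and 1946, 1582, 1383 and 1583 without control livers 1 to 4 in turn. Without Smo-KO livers 1 to 4 in turn it was 2332, 1714, 1244 and 1334. The log2 fold change of Slc10a1 turned positive with RLE (0.0041), DESeq2 (0.0040), at least 10 counts in every liver (0.0036) and limma-voom (0.015), and ranged from -0.13 to 0.17 with a liver left out. That of Cyp7a1 ranged from -0.43 to 0.036. Pearson's r with Nr0b2, without the 2 livers farthest from its median, turned negative for Cyp8b1 (-0.61), Abcb11 (-0.16) and Slc10a1 (-0.20). Spearman's rho went from -0.167 to -0.771 for Cyp8b1 and from 0.286 to -0.0857 for Abcb11, and stayed at 0.143 for Slc10a1. The cause was not tested. The other 8 genes kept their direction in all 14 fits.

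The labels do not say that same-numbered livers belong together. The deviations of same-numbered livers correlated at 0.104, 0.187, 0.0611 and 0.113, not all over the 0.1 required to treat them as paired, and 5 of 8 livers correlated best with their own number, a hint from the data and not from the design. With the replicate number as a replicate block, 8 genes had an adjusted p under 0.05 and Slc10a1 was at 0.018. In that fit 6 other bile acid genes had an unadjusted p under 0.05, where 2115 of all genes had, against 1797 without the block.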
